A study of Bos taurus with 64 samples.

Results

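Residual feed intake (RFI) is the difference between the feed an animal eats and the feed predicted from its size and growth, and animals with low RFI are the efficient ones. The comparison described here set 8 low-RFI against 8 high-RFI Charolais steers, a beef breed, at the end of a high-concentrate feeding phase. It used 16 of the 64 skeletal muscle libraries of the study, chosen by the labels for breed, RFI class and diet. Of 1030 microRNA (miRNA) names in the count table, 318 had enough counts to be tested.

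All 64 libraries came from steers of 2 breeds, Charolais and Holstein-Friesian, with 8 per breed, RFI class and diet. Intake had been recorded in 90 Charolais steers over 2 phases of 70 days, with 14 days between them to adapt. Zero-grazed grass came first and the concentrate diet second, and RFI was classed as high or low within a breed. The concentrate, fed to appetite with a limited amount of grass silage, was mostly rolled barley (86%), with 6% each of soya and molasses and the rest minerals and vitamins. The 16 steers of the comparison therefore shared breed, castrate sex, diet and the earlier grass phase, and differed by label in RFI class alone. The sources used here gave no age, muscle name or processing batch. The classes are steers selected as divergent in RFI, not groups set by a treatment. Of the 16 steers, 4 had also given a grass library. Among them, low-RFI replicate 3 carried the high-RFI label on grass, and the other 3 kept their class.

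MicroRNAs are short RNAs that pair with messenger RNAs and lower their translation or stability. Striated muscle makes a characteristic group, the myomiRs: miR-1, miR-133a, miR-133b and miR-206, the myosin-gene miRNAs miR-208a, miR-208b and miR-499, and miR-486. Muscle tissue also holds blood, vessel, connective and immune cells, each with miRNAs of its own. In whole tissue, fewer cells of a type and less of its RNA per cell cannot be told apart.

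Total counts of the 16 libraries ran from 5006811 to 10270087, with a median of 7361544.5. miR-10b alone took 58.9% ± 4.79 of the counts in low-RFI and 60.2% ± 5.02 in high-RFI libraries (SD, n = 8 each), and the 10 most abundant miRNAs took 91.0% over all 16. Total count, scaling factor, number of miRNAs with a count, miR-10b share and the first 2 principal components each differed between the classes by less than the steers varied (exact two-sided permutation tests, adjusted p = 0.749 for each of the 6 measures). All 8 myomiRs were present, and the epithelial miR-141 and miR-182 and the neural miR-9-5p and miR-129-3p averaged 2.77, 1.13, 2.07 and 0.222 CPM (CPM being counts scaled to equal library size). Low-RFI replicate 5 and high-RFI replicate 3 stood apart from the rest. Their median rank correlations with the other 15 libraries were the lowest, at 0.956 and 0.953. Some results that rest on them are given with and without them, and others with all libraries only.

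The comparison asked which muscle miRNAs differ between efficient and inefficient Charolais steers on the concentrate diet. No miRNA passed the test. By edgeR's quasi-likelihood test with Benjamini-Hochberg adjustment 0 of 318 were called, which is 0% of those tested. DESeq2 and limma-voom also called 0, and the smallest adjusted p by edgeR was 0.862. At an unadjusted p under 0.05 there were 10 miRNAs (3.14% of 318), of which 6 were higher in low RFI (1.89%) and 4 lower (1.26%). In 0 of the 318 (0%) did the 8 low-RFI values lie wholly apart from the 8 high-RFI values. The log2 differences, low minus high RFI, were above 0 for 155 miRNAs and below 0 for 163, with a median of -0.01. They ran from -0.95 to 1.45, and 3 exceeded 1 in size. For 21 miRNAs the difference exceeded the SD between steers within a class.

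**Figure D1:**
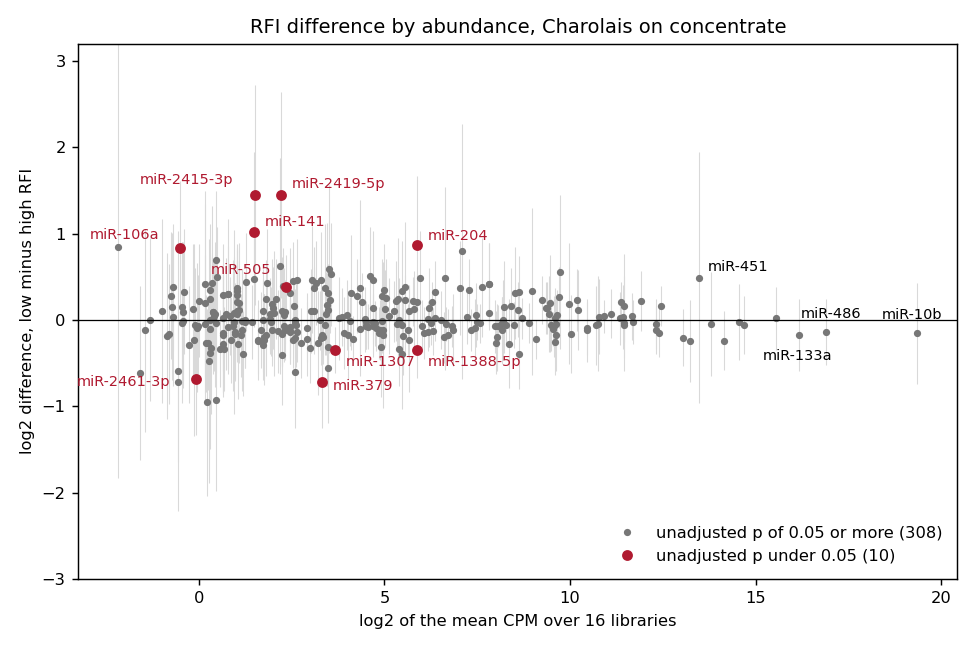
Log2 difference between low-RFI and high-RFI steers (vertical axis, low minus high) against the log2 of the mean CPM over the 16 libraries, for 318 miRNAs. Grey lines are 95% confidence intervals, cut off at the frame where they run past it, and red points are the 10 miRNAs at an unadjusted p under 0.05. The points narrow toward 0 as abundance grows, and the abundant miR-10b and miR-486 lie at -0.16 and -0.14.

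The intervals show which sizes of difference the fit allows, with the spread between steers estimated over all 64 libraries. For 262 of the 318 miRNAs (82.4%), the 95% interval of the difference stayed within a 2-fold change in either direction, and for 133 within 1.5-fold. These intervals are not adjusted for the number of miRNAs. Among the 34 miRNAs averaging 1000 CPM or more, which carried 97.6% of the counts, 33 had an interval inside 2-fold. The exception was miR-451, a miRNA of red blood cells. Among the 148 miRNAs under 10 CPM the number was 110, and their median interval reached 0.57 log2 units to either side of the estimate, against 0.36 for the 34 abundant ones.

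The smallest p-values belonged to miR-379 and miR-1307, both lower in low RFI. miR-379 is a member of the large imprinted DLK1-DIO3 miRNA cluster. In low-RFI steers miR-379 lay between 4.08 and 9.81 CPM with a median of 7.35, and in high-RFI steers between 7.30 and 17.4 CPM with a median of 12.7. All 8 low-RFI values were under the high-RFI median, and the ranges overlapped through the 3 lowest high-RFI steers. Of all 318 miRNAs tested, 4 had all 8 low-RFI values under the high-RFI median and 10 had all 8 above it. Whether these numbers exceed chance was not tested. The log2 difference of miR-379 was -0.72 ± 0.26 (SE), with a 95% interval from -1.25 to -0.20 and an unadjusted p of 0.00751 (edgeR, adjusted p = 0.862). Leaving out each library in turn moved the miR-379 difference between -0.81 and -0.63.

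miR-1307 had one of the narrowest spreads between steers of all miRNAs averaging at least 10 CPM, with a within-class SD of 0.16 log2 units. It lay between 9.46 and 13.1 CPM in low RFI (median 11.05) and between 11.5 and 15.9 CPM in high RFI (median 14.3). Again all 8 low-RFI values were under the high-RFI median, and the ranges overlapped between 11.5 and 13.1 CPM. The log2 difference of miR-1307 was -0.34 ± 0.13 (unadjusted p = 0.0128, adjusted p = 0.862 by edgeR), and it lay between -0.38 and -0.31 with any single library left out. miR-379 was first in order of p with DESeq2, and miR-1307 was first with limma-voom.

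The 3 largest differences in the whole comparison were miR-2419-5p, miR-2415-3p and miR-141, and all 3 came from scarce miRNAs with skewed values. miR-2419-5p lay between 1.30 and 16.5 CPM in low RFI (median 4.75) and between 0 and 4.27 CPM in high RFI (median 2.66), a log2 difference of 1.45 ± 0.60. Only 5 of its 8 low-RFI values exceeded the high-RFI median, and high-RFI replicate 1 had no count. miR-2415-3p lay between 0.864 and 23.3 CPM in low RFI (median 1.45) and between 0.651 and 3.70 CPM in high RFI (median 1.04). Its difference of 1.45 ± 0.64 came from low-RFI replicate 5 at 23.3 CPM, and it was -0.08 without that library.

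miR-141 belongs to the epithelial miR-200 family. It lay between 1.22 and 17.6 CPM in low RFI (median 1.82) and between 0.802 and 2.69 CPM in high RFI (median 1.97). The value of 17.6 CPM was again low-RFI replicate 5, so that the difference of 1.02 ± 0.46 became -0.10 without it. Its family member miR-200a was at 0 in all 16 libraries, and 6 other names of the list of 9 had counts but too few to be tested. The second tested epithelial marker, miR-182, lay between 0.680 and 2.45 CPM in low and between 0.215 and 1.70 CPM in high RFI. Summed over the list, the epithelial level ran from 2.72 to 19.7 CPM in low RFI and from 2.13 to 6.60 CPM in high RFI, and its part in the miR-141 result was not tested.

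Of the next 3 by p, 2 were higher in low RFI. miR-204, which is known from adipogenic and bone cell lineages and from the eye, lay between 19.4 and 179 CPM in low RFI (median 54.5) and between 27.5 and 60.1 CPM in high RFI (median 40.0). Low-RFI replicates 5 and 6 were the high values at 179 and 168 CPM, while the 3 lowest low-RFI steers lay under every high-RFI steer. The log2 difference of miR-204 was 0.87 ± 0.40, 0.56 without low-RFI replicate 5 and 0.44 by limma-voom. miR-106a, a paralogue of miR-17, was close to the lower limit of counting. It lay between 0.144 and 1.63 CPM in low RFI (median 0.967) and between 0.227 and 1.52 CPM in high RFI (median 0.322). Its difference of 0.83 ± 0.39 became 1.44 without high-RFI replicate 8. miR-1388-5p lay between 32.0 and 71.3 CPM in low RFI (median 50.9) and between 41.8 and 98.9 CPM in high RFI (median 65.2), a difference of -0.35 ± 0.16 with 7 of 8 low-RFI values under the high-RFI median.

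The last members of the 10 were miR-505 and miR-2461-3p. miR-505 lay between 3.89 and 9.70 CPM in low RFI (median 5.53) and between 2.12 and 8.06 CPM in high RFI (median 3.52). All 8 low-RFI values exceeded the high-RFI median, although the ranges overlapped, and the difference was 0.39 ± 0.18. It ranged from 0.24 without low-RFI replicate 5 to 0.58 without high-RFI replicate 3. miR-2461-3p lay between 0.272 and 1.73 CPM in low RFI (median 0.587) and between 0.429 and 2.94 CPM in high RFI (median 1.15), a difference of -0.68 ± 0.33. In 7 of 8 steers its low-RFI value was under the high-RFI median, and without the 4 concentrate libraries of steers also sampled on grass the difference was -0.40.

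**Figure D2:**
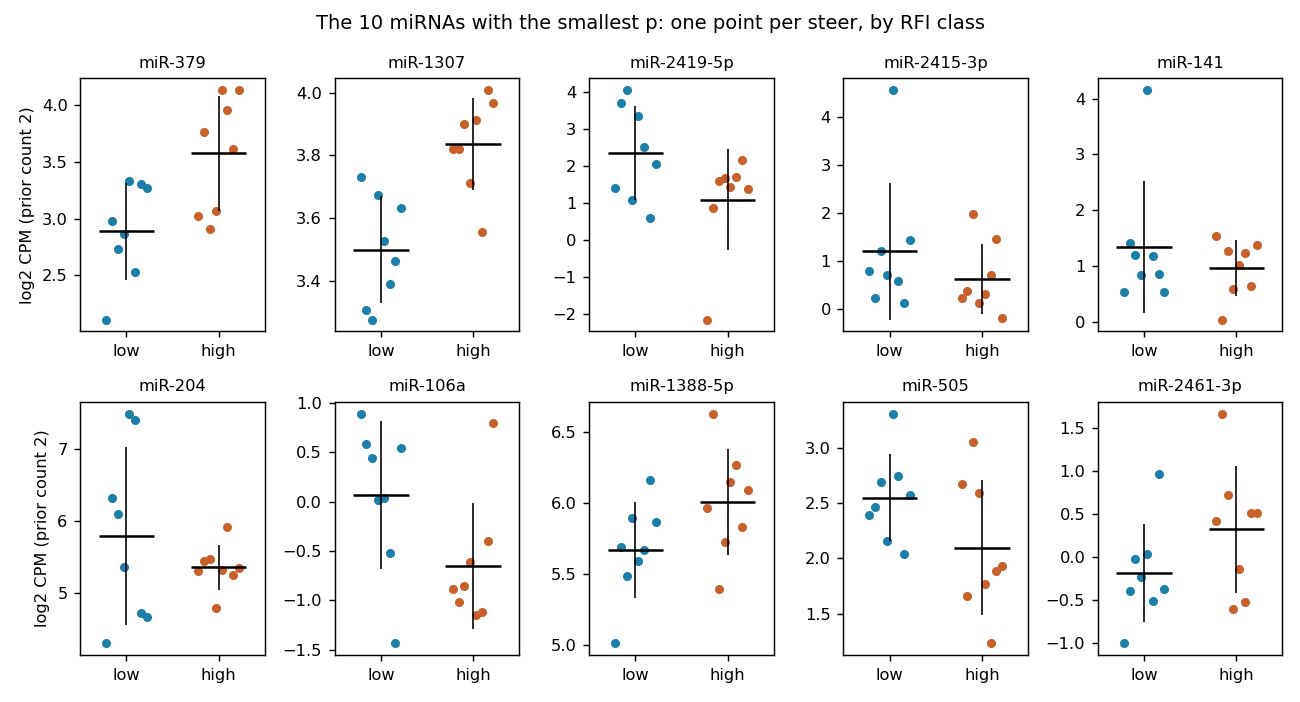
Log2 CPM (with a prior count of 2) of the 10 miRNAs with the smallest p, 1 point per steer, for low RFI (blue) and high RFI (orange). Horizontal lines are means and vertical lines are SD (n = 8). The classes overlap in every panel. A single low-RFI point at 23.3 CPM in miR-2415-3p and at 17.6 CPM in miR-141 carries those differences.

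miR-451 and miR-144, which are made together in developing red blood cells, weighed most on the largest axis of variation among the 16 libraries. The first principal component held 37.9% of the variance and the second 11.2%. After miR-451 and miR-144, the order of weights on the first was miR-2285bc, miR-18a, miR-223, miR-12044 and miR-142-5p. Of these, miR-223 and miR-142-5p are known from white blood cells. miR-451 lay between 3785 and 31722 CPM in low RFI (median 11972) and between 669 and 49091 CPM in high RFI (median 3382), a 73.3-fold span over the 16 steers. All 8 low-RFI values exceeded the high-RFI median, yet the highest value of all belonged to high-RFI replicate 3. The mean of the high class was 9514 CPM ± 16346 (SD, n = 8) and that of the low class 13365 ± 9970.

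The miR-451 difference was 0.49 ± 0.73 with all libraries, 1.79 without high-RFI replicate 3, 0.18 without low-RFI replicate 5, and 1.38 by limma-voom. miR-144 lay between 34.9 and 641 CPM in low RFI (median 116) and between 10.96 and 477 CPM in high RFI (median 40.8). Its difference was 0.80 ± 0.74, and 1.94 without high-RFI replicate 3. The summed level of the 2 erythrocyte miRNAs ran from 3820 to 32363 CPM in low and from 680 to 49568 CPM in high RFI.

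**Figure D3:**
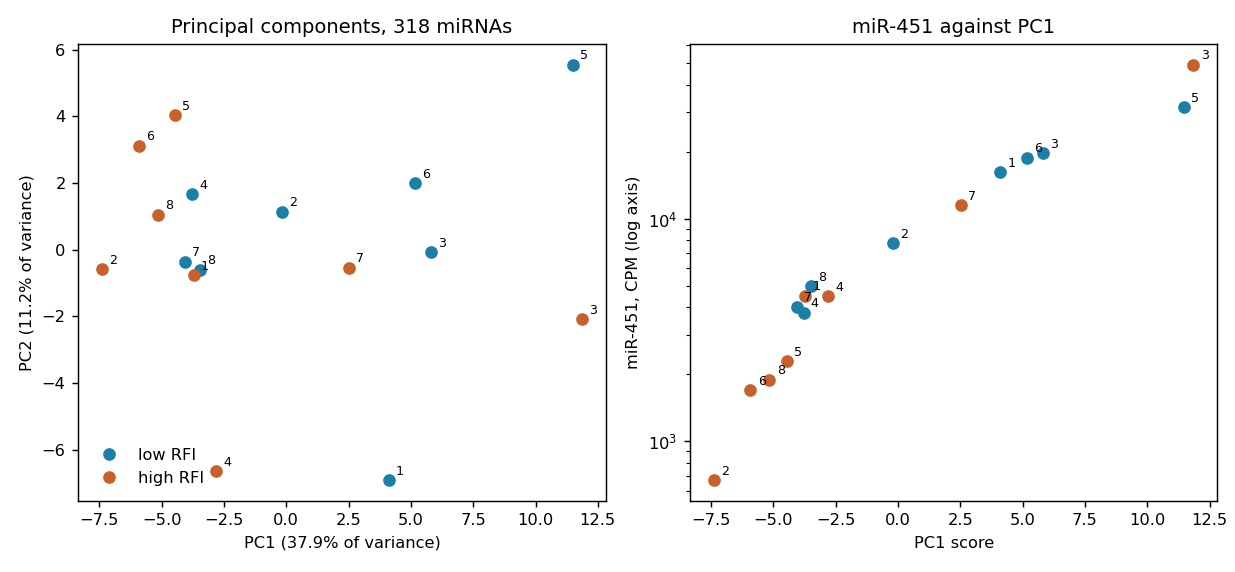
Left, scores of the 16 libraries on the first 2 principal components of log2 CPM over 318 miRNAs. Right, miR-451 in CPM on a log axis against the first component. Blue points are low RFI, orange points are high RFI, and numbers are replicates. miR-451 climbs along the first component from 669 CPM in high-RFI replicate 2 to 49091 CPM in high-RFI replicate 3, with low-RFI replicate 5 beside the latter.

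Several of the 10 miRNAs with the smallest p moved with this axis, and so did many others. Of all 317 other miRNAs, 28 correlated with miR-451 at r above 0.8 and 3 at r below -0.8, as a description. Over the 16 steers, log2 miR-1388-5p correlated with log2 miR-451 at r = -0.87 (permutation p = 2e-05, adjusted 5e-05) and rho = -0.91 (p = 1e-05, adjusted 3e-05), where 1e-05 is the smallest p that the permutations can give. miR-505 correlated at r = 0.80 (permutation p = 0.00022, adjusted 0.00052) and rho = 0.83 (p = 0.00011, adjusted 0.00026). The values for miR-379 were r = -0.65 (permutation p = 0.00657, adjusted 0.0104) and rho = -0.64 (p = 0.00961, adjusted 0.0166). miR-2415-3p gave r = 0.62 (permutation p = 0.00636, adjusted 0.0104) and rho = 0.62 (p = 0.0114, adjusted 0.0181). For miR-2419-5p r was 0.44 (permutation p = 0.0872, adjusted 0.118) and rho 0.58 (p = 0.0219, adjusted 0.0320). For miR-141, miR-204 and miR-2461-3p r was 0.45, 0.36 and -0.29 (permutation p, adjusted: 0.111, 0.219 and 0.302). miR-1307 gave r = -0.27 and rho = -0.28 (permutation p = 0.321 and 0.301), and miR-106a r = 0.29 and rho = 0.39 (p = 0.272 and 0.135). Without the 2 libraries farthest from the median miR-451, high-RFI replicates 2 and 3, r was -0.80 for miR-1388-5p, 0.75 for miR-505, -0.66 for miR-379 and -0.42 for miR-1307. Adjustment was over the 19 miRNAs correlated with miR-451, and the points share each library's scaling. The 19 were the 10 with the smallest p and others picked with the data known, and both RFI classes were pooled. The permutation p-values here and in later paragraphs are therefore descriptive. The part of blood cells in these differences was not tested. The covariate fit given next uses the level of 2 miRNAs over all 64 libraries, which is not a measure of cell content.

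With the mean log2 level of the erythrocyte pair as a covariate, an alternative chosen after seeing the data, 0 of 318 miRNAs passed and 12 stood at an unadjusted p under 0.05. The difference was -0.34 for miR-1307, -0.57 for miR-379, 0.26 for miR-505 and -0.14 for miR-1388-5p. Of the 10 miRNAs with the smallest p, 2 were among the 10 smallest in that fit.

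High-RFI replicate 3 decided more than any other library how many miRNAs approached the threshold. Without it 46 miRNAs stood at an unadjusted p under 0.05, 36 higher and 10 lower in low RFI, against 7 to 21 when any of the other 15 was left out. None of the 46 passed adjustment. The nearest were miR-15b and miR-301a, each at an adjusted p of 0.0509 by edgeR, with differences of 1.00 ± 0.25 and 0.61 ± 0.16 in that fit against 0.46 ± 0.28 and 0.32 ± 0.18 with all libraries. miR-15b, of the miR-15 and miR-16 family that restrains the cell cycle, lay between 15.98 and 56.1 CPM in low RFI (median 28.1) and between 11.8 and 68.3 CPM in high RFI (median 14.8). High-RFI replicate 3 held the 68.3 CPM, and the next high-RFI steer was at 20.9 CPM. miR-15b correlated with miR-451 at r = 0.92 and rho = 0.96 over the 16 steers (permutation p = 1e-05 for each, the smallest the permutations can give, adjusted 3e-05). It was picked from the fit without high-RFI replicate 3, the library highest in miR-451, so these values are descriptive. Without both that library and low-RFI replicate 5, which have the highest miR-451 of their classes, 24 miRNAs stood at an unadjusted p under 0.05 and the smallest adjusted p was 0.203. This pair was chosen after seeing the data.

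**Figure D4:**
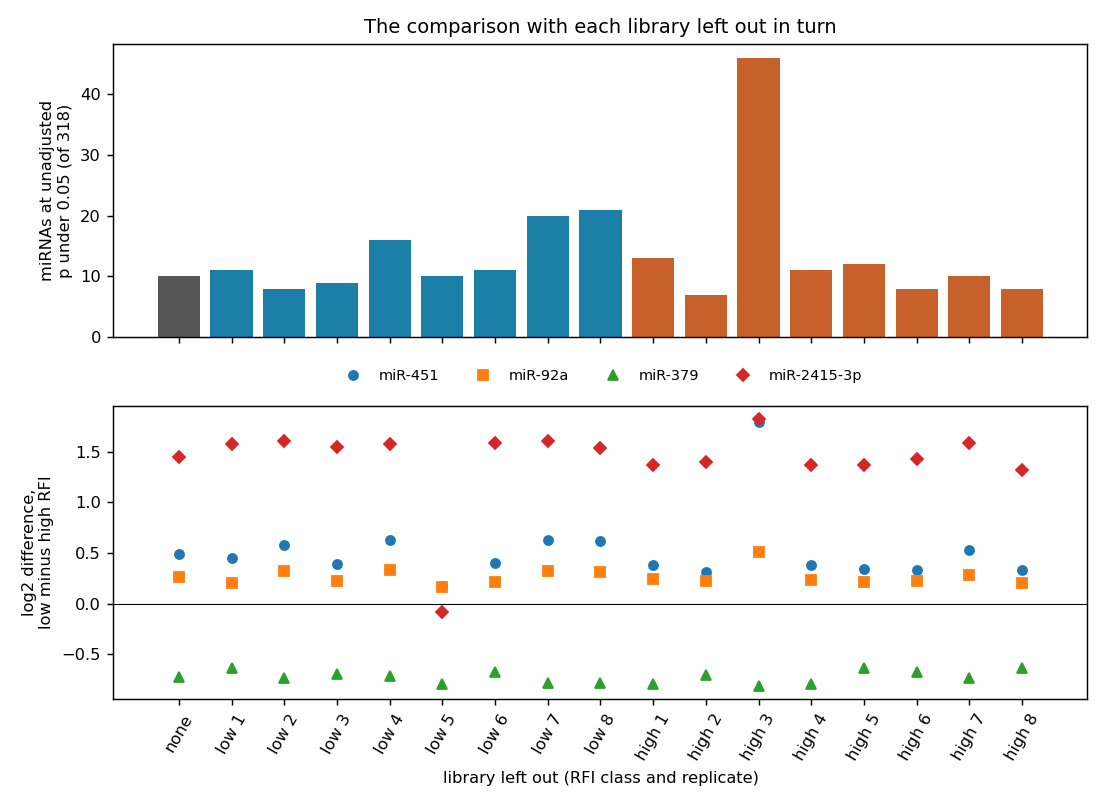
Top, the number of miRNAs at an unadjusted p under 0.05 with all 16 libraries (grey) and with each library left out in turn. Bottom, the log2 difference (low minus high RFI) of miR-451, miR-92a, miR-379 and miR-2415-3p in the same fits. The count is 10 with all libraries and 46 without high-RFI replicate 3, where miR-451 stands at 1.79, and miR-2415-3p is at -0.08 without low-RFI replicate 5.

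None of the 10 most abundant miRNAs passed the test, and miR-451, one of them, is described above. miR-10b, encoded in a HOX gene cluster and the leading miRNA of these libraries, had a log2 difference of -0.16 ± 0.29. miR-10a, its close relative, stood at -0.05 ± 0.30. miR-26a, which promotes myoblast differentiation, took 4.31% of the counts and stood at 0.02 ± 0.18. miR-22-3p took 2.37% and stood at -0.06 ± 0.17, and miR-143, abundant in smooth muscle, took 2.22% and stood at -0.03 ± 0.22. The 95% intervals of these 5 ran at the widest from -0.74 to 0.56.

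The myomiRs all had estimates below 0, and none passed the test. Their median was -0.21, against -0.01 over all miRNAs tested, with 0 of 8 above 0. miR-486, a miRNA enriched in striated muscle, lay between 97539 and 154788 CPM in low RFI (median 107498) and between 75327 and 192912 CPM in high RFI (median 132119). The high-RFI range enclosed the low-RFI range, and the difference was -0.14 ± 0.19. miR-133a, a repressor of SRF, lay between 41713 and 85297 CPM in low RFI (median 71706) and between 50016 and 98336 CPM in high RFI (median 75467), a difference of -0.17 ± 0.21. miR-133b stood at -0.24 ± 0.24 and miR-206, encoded beside it, at -0.56 ± 0.32. miR-206 was also among the 5 largest differences of miRNAs averaging at least 10 CPM. It lay between 4.61 and 21.2 CPM in low RFI (median 8.35) and between 3.65 and 29.7 CPM in high RFI (median 11.4), with 7 of 8 low-RFI values under the high-RFI median.

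The slow-fibre myosin miRNAs were at -0.17 ± 0.21 for miR-208b and -0.27 ± 0.26 for miR-499, miR-1 was at -0.26 ± 0.18, and the scarce cardiac miR-208a was at -0.02 ± 0.53. The summed level of the 8 ran from 171252 to 212411 CPM in low RFI (median 198139) and from 150422 to 275012 CPM in high RFI (median 225426). miR-133a correlated with miR-451 at r = -0.77 (permutation p = 0.00048, adjusted 0.00101) and rho = -0.72 (p = 0.00207, adjusted 0.00393). The most abundant myomiR, miR-486, went the other way at r = 0.35 (permutation p = 0.190, adjusted 0.226) and rho = 0.27 (p = 0.316, adjusted 0.353). As a description, r was -0.78 for miR-1, -0.56 for miR-133b, -0.46 for miR-206, -0.32 for miR-208b, -0.10 for miR-499 and 0.27 for miR-208a. With the erythrocyte covariate the median of the myomiRs was -0.09, and with scaling by total counts, where the median of all miRNAs was 0.09, it was -0.08.

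The miR-17-92 cluster and its paralogues, which drive proliferation of blood and progenitor cells, leaned the other way. Of 12 tested members 11 stood above 0 and 1 below, with a median of 0.34 and 0 called. The 3 most abundant, miR-92a, miR-25 and miR-19b, had differences of 0.26 ± 0.18, 0.19 ± 0.28 and 0.33 ± 0.49. miR-92a lay between 602 and 1318 CPM in low RFI (median 891) and between 522 and 1584 CPM in high RFI (median 625). In 7 of 8 low-RFI steers it exceeded the high-RFI median, and high-RFI replicate 3 again had the highest value. miR-18a was among the 5 largest differences of miRNAs averaging at least 10 CPM, at 0.59 ± 0.49. miR-363 was the member below 0, at -0.09 ± 0.37.

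miR-92a and miR-18a correlated with miR-451 at r = 0.91 and 0.90 and rho = 0.93 and 0.94 (permutation p = 1e-05 for each, the smallest the permutations can give, adjusted 3e-05). Without high-RFI replicate 3 the median of the 12 was 0.72, without low-RFI replicate 5 it was 0.15, and with the erythrocyte covariate it was -0.01. The erythrocyte list had a median of 0.64, with both members above 0, and the leukocyte list a median of 0.19, with 6 of 8 above 0. The summed leukocyte level ran from 648 to 2492 CPM in low RFI (median 1256) and from 509 to 2670 CPM in high RFI (median 675).

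miRNA genes that lie close together are often transcribed as one RNA, so neighbours were compared by sign. By RefSeq gene order in the assembly ARS-UCD2.0, 286 of the 318 miRNA names matched 1 gene, and 33 groups held neighbours within 10 kb of each other. In 17 of the 33 all members had the same sign, and the share that chance would give was not computed. Groups wholly below 0 were let-7c with miR-99a, miR-16a with miR-15a, miR-206 with miR-133b, and miR-193b with miR-365. So were miR-30c with miR-30e-5p, miR-374a with miR-545-5p, and miR-532 with miR-188. The other same-sign groups were wholly above 0. The 7 mature miRNAs of the miR-17-92 cluster were all above 0, and so were miR-106b, miR-93 and miR-25, which share a host gene. miR-221 (0.51 ± 0.28) and miR-222 (0.46 ± 0.24), repressors of the cell-cycle inhibitor p27, were a pair above 0. Without high-RFI replicate 3 miR-221 was at 0.84 ± 0.28. miR-214 (0.47 ± 0.31) and miR-199a-5p (0.48 ± 0.28), a fibroblast pair transcribed from one RNA, were another pair above 0. Low-RFI replicate 5 had the highest value of both, at 21.2 CPM for miR-214 and 153 CPM for miR-199a-5p. The next steer, low-RFI replicate 6, was at 11.1 and 88.9 CPM. Both mature arms were tested for 26 hairpins, and in 15 of these the arms had the same sign.

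miR-379 stood against its own cluster. The DLK1-DIO3 miRNAs, expressed from the maternal chromosome and linked to growth before birth, had a median of 0.10 with 19 of 26 tested members above 0, 7 below and 0 called. The genomic neighbours of miR-379 within the cluster numbered 21 tested names, 15 above 0 and 6 below, from -0.72 for miR-379 itself to 0.43, with a median of 0.11. The 3 most abundant members were miR-127 at 0.03 ± 0.17, miR-411a at 0.12 ± 0.16 and miR-381 at 0.12 ± 0.22. miR-411a, encoded beside miR-379, lay between 290 and 495 CPM in low RFI (median 392) and between 306 and 474 CPM in high RFI (median 347). It averaged 388 CPM against 9.90 CPM for miR-379. Whether the 2 differences differ was not tested.

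Among regulators of metabolism, the 4 tested members of the miR-378 family all stood below 0, and none passed. miR-378 lies within the gene PPARGC1B and is known for effects on mitochondrial and fatty acid metabolism. miR-378, at 1.64% of counts, lay between 11429 and 22273 CPM in low RFI (median 15709) and between 12160 and 22885 CPM in high RFI (median 20741). Of the 8 low-RFI steers 6 were under the high-RFI median, and the difference was -0.24 ± 0.17. miR-378b, miR-378c and miR-378d stood at -0.26 ± 0.19, -0.39 ± 0.20 and -0.34 ± 0.21. All 8 low-RFI values of miR-378c were under the high-RFI median, at 259 to 398 CPM against 287 to 554 CPM (medians 358 and 438), with an unadjusted p of 0.0594 (edgeR). Members of the family have similar sequences, so reads may be shared among them. Across genes, miR-378 and miR-378c were the first and the third most negative of 317 miRNAs in their correlation with miR-451 (r = -0.88 and -0.81), a description over the 16 steers.

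The list of hypoxia and mitochondrial miRNAs, which holds the miR-378 family, had 3 of 12 members above 0, 9 below and a median of -0.11. Its miR-16b and miR-16a stood at 0.12 ± 0.23 and -0.06 ± 0.15, and miR-210, the best known hypoxia-induced miRNA, at -0.04 ± 0.20. Lipid metabolism and adipogenesis had 13 of 19 above 0, 6 below and a median of 0.10. miR-27b, which represses PPARG, stood at 0.17 ± 0.12, at 4930 to 7316 CPM in low and 3729 to 6249 CPM in high RFI (medians 6094 and 5374). The SREBP-gene miRNAs miR-33a and miR-33b, which act on cholesterol export, stood at -0.23 ± 0.25 and -0.32 ± 0.39. miR-103 and miR-107, regulators of insulin sensitivity through caveolin, stood at 0.31 ± 0.27 and 0.37 ± 0.27, and miR-103 correlated with miR-451 at r = 0.94 as a description. The insulin and glucose list had 8 of 14 above 0, 6 below and a median of 0.01, with its most abundant members miR-26a, miR-143 and miR-126-5p at 0.02, -0.03 and -0.15.

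Regulators of myoblast proliferation and differentiation had 23 of 30 above 0, 7 below and a median of 0.05. The most abundant after miR-26a and miR-27b was miR-181a, a miRNA that rises in myoblast differentiation, at 0.04 ± 0.13. The let-7 family had 4 of 10 above 0 and a median of -0.02, with differences from -0.07 to 0.23. Its let-7g and let-7a-5p were among the 5 smallest SDs of miRNAs averaging at least 10 CPM. let-7f, let-7a-5p and let-7g stood at -0.05 ± 0.10, 0.04 ± 0.10 and -0.05 ± 0.10. The miR-424 cluster had 4 of 5 above 0 and a median of 0.28, with miR-450b at 0.35 ± 0.27, miR-424-5p at 0.28 ± 0.21 and miR-450a at 0.31 ± 0.26. The miR-532 cluster had 2 of 8 above 0 and a median of -0.13, with miR-660 at -0.17 ± 0.22. The family of miR-2284 and miR-2285, found in ruminants, had 41 of 148 names tested, 17 above 0, 24 below and a median of -0.03, and 18 of its names had no count in the 16 libraries. Its most abundant members miR-2284x, miR-2285ce and miR-2285f stood at -0.02 ± 0.10, -0.04 ± 0.13 and -0.03 ± 0.12. The levels of miR-2285ce and miR-2285f were similar in every library, and some scarcer names of the family were almost equal to each other throughout. The numbers above and below 0 and the median of this family therefore do not rest on 41 separate measurements. In each of these 11 lists of function 0 members were called. With scaling by total counts the medians of let-7, the miR-532 cluster and the miR-2284 and miR-2285 family turned positive, at 0.07, 0.02 and 0.07, beside a median of all miRNAs of 0.09.

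**Figure D5:**
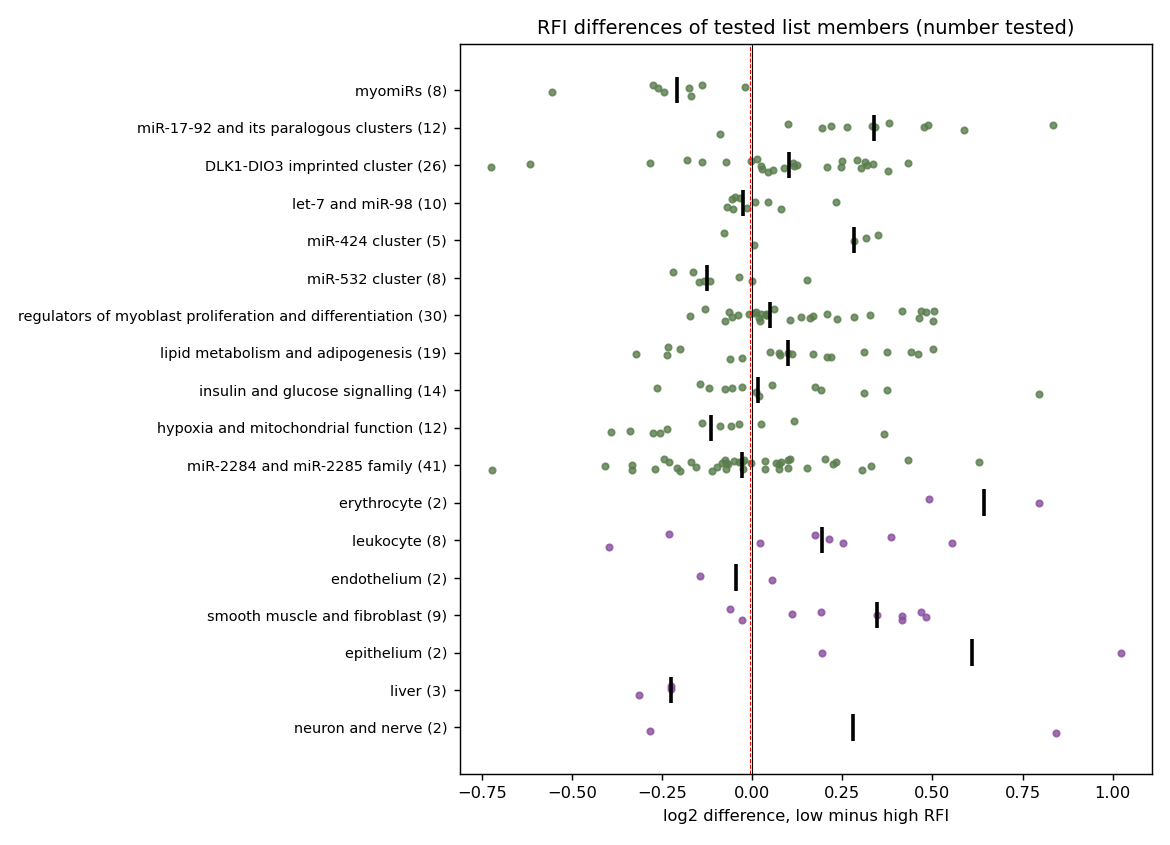
Log2 difference (low minus high RFI) of each tested member of 18 lists, 11 of function (green) and 7 of cell types (purple). The number tested is in brackets, black bars are list medians, and the red dashed line is the median of all 318 miRNAs at -0.01. The 8 myomiRs lie below 0 and 11 of the 12 miR-17-92 members above it, and none of the points passed the test.

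Of the remaining cell-type lists, smooth muscle and fibroblast had 7 of 9 above 0 and a median of 0.35, and none passed. Its most abundant members miR-143, miR-21-5p and miR-145 stood at -0.03 ± 0.22, -0.06 ± 0.23 and 0.19 ± 0.35. The summed level, dominated by miR-143, ran from 20204 to 39582 CPM in low RFI (median 27381) and from 17000 to 35014 CPM in high RFI (median 28399). Low-RFI replicate 5 had the highest miR-199a-3p, miR-199a-5p and miR-214, with miR-199a-3p at 550 CPM against at most 320 CPM in the other steers. The members miR-199a-3p and miR-199c had nearly the same counts in every library and are not separate measurements. The endothelial miR-126-5p and miR-126-3p stood at -0.15 ± 0.14 and 0.05 ± 0.15. The liver list had all 3 tested members below 0, with a median of -0.23. miR-192, a liver and gut miRNA, lay between 352 and 621 CPM in low RFI (median 481) and between 521 and 719 CPM in high RFI (median 574), a difference of -0.23 ± 0.11 with an unadjusted p of 0.0512 (edgeR). miR-194, encoded with a copy of miR-192, stood at -0.23 ± 0.13 and miR-885 at -0.31 ± 0.29. For neurons, miR-9-5p and miR-129-3p stood at -0.28 and 0.84, the latter at 0 to 0.947 CPM in low and 0 to 0.453 CPM in high RFI.

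The steers within a class varied unequally from miRNA to miRNA. The SD of log2 CPM was larger in high RFI for 189 miRNAs and in low RFI for 129, with medians of 0.44 and 0.40. The widest spread among miRNAs averaging at least 10 CPM belonged to miR-451 (1.59), miR-144 (1.57), miR-223 (1.15), miR-18a (1.13) and miR-19a (1.12). The narrowest belonged to miR-423-3p (0.079), let-7g (0.13), let-7a-5p (0.15), miR-532 (0.16) and miR-1307 (0.16). miR-423-3p lay between 93.3 and 110 CPM in low RFI and between 97.2 and 112 CPM in high RFI. Its difference was -0.04 ± 0.10.

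The same RFI contrast could be set against the other breed on the same diet. The difference of the 2 RFI effects (Charolais minus Holstein-Friesian) was called for 0 of 318 miRNAs (0%) by edgeR, DESeq2 and limma-voom, with 39 (12.3%) at an unadjusted p under 0.05. The smallest p-values belonged to miR-342 (0.62 ± 0.16, adjusted p = 0.122), the lymphocyte miRNA miR-150 (1.12 ± 0.33, 0.173) and miR-505 (0.83 ± 0.26, 0.174). In Charolais steers miR-342 lay between 69.4 and 94.6 CPM in low RFI (median 84.9) and between 56.6 and 87.9 CPM in high RFI (median 72.5), a difference of 0.21 ± 0.12. miR-150 lay between 18.6 and 55.8 CPM in low RFI (median 39.1) and between 18.6 and 50.7 CPM in high RFI (median 28.0), a difference of 0.25 ± 0.23. The Holstein-Friesian RFI effects on concentrate were -0.41, -0.87 and -0.44 for miR-342, miR-150 and miR-505.

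Without the Charolais high-RFI replicate 3 the breed difference was called for 19 miRNAs, 18 positive and 1 negative. Each of the 18 had a positive RFI effect in Charolais and a negative one in Holstein-Friesian steers. The 18 were picked by the difference of these 2 effects, which favours opposite signs. In that fit none of them passed adjustment for the RFI effect in Charolais (smallest adjusted p = 0.0509 by edgeR). The 19 were miR-15b (1.80), miR-17-3p (1.65), miR-103, miR-107, miR-505, miR-301a, miR-342, miR-150, miR-17-5p, miR-93, miR-106b, miR-142-3p, miR-185, miR-221, miR-16b, miR-92a, miR-12044, miR-130b and, the negative one, miR-1388-5p (-0.77). As a description over the 16 Charolais libraries, the 18 correlated with miR-451 between r = 0.57 and 0.95. Over all 317 other miRNAs the median r was -0.13, and 28 exceeded 0.8. High-RFI replicate 3 had the highest miR-451, so leaving it out favours miRNAs that follow miR-451. Without low-RFI replicate 5 as well, 8 were called, and with the erythrocyte covariate 1 was called, miR-190a (1.63 ± 0.38, adjusted p = 0.0243 by edgeR). Low-RFI replicate 7 held miR-190a at 51.6 CPM, against 5.44 to 13.4 CPM in the other 7 low-RFI steers and 5.77 to 11.3 CPM in high RFI. Without that library, an alternative chosen after seeing the data, the same covariate fit gave 0.94 ± 0.30 (adjusted p = 0.277 by edgeR) and 0 calls. The median miR-451 level was 3147 CPM in low-RFI and 7280 CPM in high-RFI Holstein-Friesian steers on concentrate, the reverse of the Charolais medians.

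Against the grass phase of the same breed the difference of the RFI effects (concentrate minus grass) was called for 0 of 318 miRNAs (0%) by edgeR, DESeq2 and limma-voom, and 17 (5.35%) stood at an unadjusted p under 0.05. The smallest p-values belonged to miR-149-5p (-0.83 ± 0.28), miR-2887 (-2.003 ± 0.74) and miR-2285ba (-1.03 ± 0.40), each with an adjusted p of 0.686. On concentrate miR-149-5p lay between 3.45 and 8.70 CPM in low RFI and between 3.70 and 11.4 CPM in high RFI, a difference of -0.26 ± 0.20, and on grass the difference was 0.57. The RFI effect of miR-379 was -0.63 ± 0.26 on grass and 0.19 ± 0.26 in Holstein-Friesian steers on concentrate. The 2 Charolais values share 4 steers and are not independent.

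Those repeated steers show single animals on both diets. Steer 307, the one labelled high RFI on grass and low RFI on concentrate (low-RFI replicate 3), had miR-379 at 10.96 CPM on grass and 6.43 CPM on concentrate. Its miR-2419-5p was 5.13 and 16.5 CPM on the same occasions. Steer 310, low in both phases, had miR-379 at 5.20 CPM on grass and 7.05 CPM on concentrate. Steers 1484 and 860, high in both, had 16.2 and 13.7 CPM on grass and 13.4 and 12.01 CPM on concentrate. In each phase the steers labelled high therefore had the higher miR-379 among these 4, which are too few for a test and were seen after miR-379 had been picked by its p.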

How the data were processed

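The authors deposited 1 table of values that are expected counts (estimated counts per miRNA), not normalized, with 1030 miRNA names and 64 libraries, and 0 columns had no sample. The build ARS-UCD 1.2 and the tools edgeR 3.5, R 3.4, cutadapt 2.6 and FastQC 0.11.8 are named in the submitters' processing notes without roles. Aligner, counter and annotation remain not given in the sources used here. Of the names, 61 held fractions (40 of those tested), all values were rounded to whole counts, miR-2285b (3 empty cells) was left out, and 226 names were at 0 in all libraries. Names that did not enter the test held 0.00534% of the counts of the 16 libraries.

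In R 4.3.3, edgeR 4.0.16 was fitted to 8 group means over all 64 libraries with TMM factors, filterByExpr and robust quasi-likelihood (56 residual degrees of freedom). Calls used a Benjamini-Hochberg adjusted p under 0.05 over 318 miRNAs. CPM values use TMM factors, and log2 CPM for components, correlations and SDs has a prior count of 2. DESeq2 1.42.0 and limma 3.58.1 were alternatives. Library measures used exact permutations (12870), and correlations 100000 permutations.

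The comparison, the lists and the rule for names were chosen with earlier results of these data known. The rule named the 10 smallest p, the 10 most abundant, the 3 most abundant tested members of each of 18 lists, the 5 largest differences and the 5 largest and 5 smallest SDs at 10 CPM or more, and the 3 smallest p of each interaction. The other miRNAs printed were chosen after their values were seen. Replicates are separate steers, numbered in accession order, which pairs nothing.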

Additional observations from a re-analysis of the deposited data

Results flagged for a closer look

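In 144 groups of 8 steers checked (each named miRNA or library measure in each class), 12 had a highest or lowest steer set far apart. The measure was its gap to the nearest steer as a share of the group's whole range; it exceeded Dixon's 95% critical value for 8 values. Chance gives this in about 1 of 20 groups.

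High-RFI replicate 3 gave 5 of these. It was the highest steer for miR-92a (gap share 0.592, at 1584 CPM against at most 821 in the others), miR-25 (0.588, 2003 against 748), miR-16b (0.583, 3385 against 1260) and miR-18a (0.551, 34.1 against 9.21). It was the lowest for miR-378 (0.541, 12160 against at least 17121). Low-RFI replicate 5 was the highest for miR-141 (0.757, 17.6 against at most 2.44) and miR-2415-3p (0.706, 23.3 against 2.46).

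Low-RFI replicate 1 was the lowest for miR-194 (0.577, 10.9 against at least 15.5) and miR-146b (0.550, 15.4 against 37.2). High-RFI replicate 1 was the lowest for miR-2419-5p (0.700, no count against at least 1.60). High-RFI replicate 8 was the highest for miR-106a (0.616, 1.52 against at most 0.534), and high-RFI replicate 5 the lowest for miR-19b (0.52601, 124 against at least 335). These shares were taken on the log2 scale with a prior count of 2.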

How the results depend on the processing

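The comparison gave 0 calls under all 26 alternatives run, which covered scaling, filter, tool, samples and covariate. The number at an unadjusted p under 0.05 was 10 in the reported fit, 6 with total counts, 40 of 803 without the filter, 46, 21, 20 and 16 without high-RFI replicate 3 and low-RFI replicates 8, 7 and 4, and 24 without low-RFI replicate 5 and high-RFI replicate 3 together. The breed difference of the RFI effect had 0 calls with each of the 16 Charolais concentrate libraries left out except high-RFI replicate 3 (0 to 19). The Holstein-Friesian libraries were not left out. It had 1 with the erythrocyte covariate, 0 with that covariate and low-RFI replicate 7 omitted, and 8 without both libraries, alternatives chosen after seeing the data. Its unadjusted number was 39, and 63 with total counts, 61 without the filter and 59 without high-RFI replicate 3. The diet difference had 0 calls throughout, with an unadjusted number of 17 that moved to 8 with total counts and without low-RFI replicate 5 or high-RFI replicate 4, 11 by limma-voom, 43 without the filter, and 47 and 27 without high-RFI replicates 3 and 5. The cause was not tested.

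Of the 66 miRNAs named by rule, 35 kept their sign under every alternative and 31 did not. The sign changed with total counts for miR-22-3p (0.0599), miR-143 (0.0795), miR-10a (0.0740), let-7f (0.0621), let-7g (0.0655), miR-2284x (0.0778), miR-2285ce (0.0599), miR-2285f (0.0682), miR-21-5p (0.0401), miR-423-3p (0.0577) and miR-532 (0.0812). It changed with the erythrocyte covariate for miR-10b (0.0937), miR-133a (0.0378), miR-22-3p (0.0909), miR-143 (0.0138), miR-10a (0.21), miR-25 (-0.13), let-7f (0.0297), let-7g (0.0243), miR-16b (-0.0863), miR-2284x (0.0641), miR-2285ce (0.0450), miR-2285f (0.0334), miR-144 (-0.0694), miR-142-5p (-0.0462), miR-18a (-0.0431), miR-223 (-0.19) and miR-532 (0.0116), and without both libraries for miR-141 (-0.0622), miR-127 (-0.10), miR-502b (-0.0154) and miR-9-5p (0.0555). miR-144 is part of the erythrocyte covariate, so its value with it is held near 0 by construction. Without the 4 libraries of steers also sampled on grass it changed for miR-143 (0.0271), miR-502b (-0.0391), miR-181a (-0.0377) and miR-126-3p (-0.0498). miR-26a stood at -0.00717 with DESeq2 and with its size factors, and at -0.00624 when the 16 libraries were fitted alone. Leaving out single libraries gave ranges across 0 for miR-2415-3p (-0.0829 to 1.82), miR-141 (-0.10 to 1.16), miR-26a (-0.0539 to 0.10), miR-22-3p (-0.16 to 0.0283), miR-143 (-0.13 to 0.0316), miR-10a (-0.13 to 0.0798), miR-25 (-0.0592 to 0.69), miR-127 (-0.0761 to 0.0822), miR-381 (-0.0908 to 0.22), let-7a-5p (-0.00205 to 0.0791), miR-502b (-0.0908 to 0.10), miR-181a (-0.0271 to 0.0900), miR-16b (-0.0303 to 0.58), miR-2284x (-0.0753 to 0.0155), miR-2285ce (-0.0841 to 0.0258), miR-2285f (-0.0729 to 0.0425), miR-126-3p (-0.0409 to 0.12), miR-182 (-0.0412 to 0.36), miR-223 (-0.11 to 0.91) and miR-532 (-0.0736 to 0.0101). The range was -140202 to 558521 for the class difference in total count, -0.31 to 1.63 for the second component and 2.39 to 5.72 for the first. Without high-RFI replicate 3 the first component had an unadjusted exact permutation p of 0.0333, against 0.227 with all libraries.

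Pairing was examined over all 64 libraries through the 5 steers sampled in both phases, 4 of them in the comparison. The 16 libraries compared came from 16 steers, so the comparison itself held no pairs. With the steer as a random replicate block (limma-voom, correlation 0.392) the calls stayed at 0 and 11 miRNAs stood at an unadjusted p under 0.05. miR-379 was then -0.63, and the sign changed for miR-127 (-0.0200), miR-502b (-0.0281) and miR-129-3p (-0.22). Of the 95% intervals, 110 of 148 lay within 2-fold under 10 CPM, and 33 of 34 at 1000 CPM or more.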
